A study of Mus musculus with 14 samples.

Results

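The 10 genes described here encode subunits of Polycomb repressive complex 2 (PRC2) in the mouse: Ezh1, Ezh2, Eed, Suz12, Rbbp4, Rbbp7, Jarid2, Mtf2, Phf19 and Aebp2. They were chosen by name, not by their measured values, and all 10 were found among the 52550 genes of the count table. Their RNA was measured in normal bone marrow progenitors of 2 genotypes and in progenitors transformed by the MLL-AF9 fusion gene.

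PRC2 methylates histone H3 at lysine 27 (H3K27), and the trimethylated mark is found at silenced developmental genes. EZH1 or EZH2 is the catalytic subunit, EED binds the mark and stimulates the enzyme, SUZ12 is the scaffold that holds the complex together, and RBBP4 or RBBP7 binds histones. Accessory subunits join this core in alternative forms: MTF2 and PHF19 are Polycomb-like proteins that help to bring the complex to CpG-rich DNA, while JARID2 and AEBP2 belong to the other form. In blood formation EZH2 is the enzyme of dividing progenitors, EZH1 is the form that persists in cells that divide little, and MLL-AF9 leukaemia is known to depend on PRC2.

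Hematopoietic stem and progenitor cells (HSPCs) were enriched from femur and tibia of C57BL/6 mice aged 8 to 20 weeks. The groups were 4 samples of wild-type mice (WT HSPCs), 4 of mice with a CRISPR deletion of the microRNA gene Mir139 (Mir139KO HSPCs), and 6 MLL-AF9 cultures made from WT HSPCs, of which 3 carried the retroviral vector pMSCV-MLL-AF9-neo (neo) and 3 pMSCV-MLL-AF9-puro (puro). The MLL-AF9 cells had been cultured overnight with a mix of cytokines (SCF, GM-CSF, IL-6 and IL-3), transduced, and selected with neomycin or puromycin. By the methods they were then replated in methylcellulose and expanded in liquid medium with serum and cytokines. The labels let HSPCs be either lysed directly or expanded without saying which. No sample is labelled as HSPCs taken through the same transduction, selection, replating and expansion without the fusion, so the fusion gene and these steps cannot be told apart. The study asked how Mir139 is silenced in MLL-AF9 cells and what part PRC2 plays in it. It is not stated whether the samples of a group came from separate mice or transductions, and the p-values measure only the spread between these samples.

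Each library held 35016668 to 45877994 counts. The counts of Mir139 itself were 0 in all 14 libraries, so these data could not check the deletion. The gene Gm26917, whose nature was not examined here, took an uneven part of the counts. Its share was 17 to 21.9% in WT HSPC replicates 1 and 2 and Mir139KO HSPC replicates 2 and 3 (the low-share samples). It was 32.7 to 35.4% in the other 4 HSPC samples (the high-share samples) and 7.55 to 10.4% in MLL-AF9 cells. The count-weighted mean GC content of protein-coding genes moved with it, from 50.26 to 51.29% in the low-share samples, 52.81 to 53.17% in the high-share samples and 48.28 to 48.77% in MLL-AF9 cells. Puro replicates 1 and 3 were close (chi-square per degree of freedom of their counts 9.12, against 20.9 to 768 for the other pairs within a group), but they differed by more than sampling noise and were kept as 2 samples. The MLL fusion targets Hoxa9, Hoxa10 and Meis1 summed to 313 to 1180 CPM (counts scaled to a common library size) in MLL-AF9 cells and 18.3 to 38.3 in WT HSPCs. HSPC samples also held RNA of maturing cells: the 6 erythroid markers summed to 528 to 1170 CPM and the 4 T and NK cell markers to 80.2 to 172, against 1.94 to 3.94 and 2.44 to 12.1 in MLL-AF9 cells. The B cell, megakaryocyte, granulocyte and monocyte lists were also lower in sum in MLL-AF9 cells. They reached at most 6.28, 13.3, 2300 and 612 CPM there, against at least 30.3, 78.2, 4360 and 713 in HSPCs. Against WT HSPCs 5 of 5, 3 of 3, 4 of 6 and 2 of 3 of their genes were called lower, beside 29.4% of all genes. Cd14 of the monocyte list was called higher (log2 fold change 1.29). S100a8 and Camp of the granulocyte list were not called (−0.48 and −2.51). The sums of the plasma cell and of the stem and progenitor list overlapped. In MLL-AF9 cells the plasma cell sum was carried by Xbp1 (294 to 493 CPM). The largest gene of the other list was the fusion target Meis1 (127 to 917 CPM). In neo replicate 1 Kit was close to it (118 against 127 CPM). Of the other genes of these 2 lists, Jchain and Sdc1 fell (log2 fold change against WT HSPCs −12.0 and −3.35). Cd34, Flt3, Gata2, Hlf and Kit also fell (−5.50, −5.27, −5.0, −2.70 and −1.56), and Ly6a and Mecom were not called. Ly6a was at 81.3 and 69.4 CPM in puro replicates 1 and 3 and 1.8 to 3.33 CPM in the other cultures. Its highest HSPC value was 36.2 CPM. In such bulk samples, fewer cells of a type and less RNA per cell cannot be told apart.

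The 10 genes lie on 8 chromosomes of build GRCm38. By the GENCODE annotation, Ezh1 lies at chr11:101191115-101226463, Suz12 at chr11:79993106-80034123, Ezh2 at chr6:47530139-47595341 and Aebp2 at chr6:140622663-140678472. Eed lies at chr7:89954654-89980983, Rbbp4 at chr4:129307100-129335370, Rbbp7 at chrX:162760402-162779092, Jarid2 at chr13:44729474-44921643, Mtf2 at chr5:108065674-108109004 and Phf19 at chr2:34893757-34914026. The longest transcript of Mtf2 held 38.2% GC, that of Aebp2 40.9%, of Suz12 41.6%, of Ezh2 44.4%, of Rbbp7 44.7% and of Rbbp4 45.2%. Eed (47.8%) and Jarid2 (48.8%) lay closer to the median of 49.7% over all genes that entered a test, and Ezh1 (51.2%) and Phf19 (53.9%) above it. Of the exonic bases of Rbbp4, 18% also belong to exons of Sync and Gm26722 on the opposite strand, and for Ezh2, Eed, Suz12, Rbbp7 and Mtf2 the shared part was 2.61 to 6.93%. The strand setting of the counting is not given in the sources used here, so reads there cannot be told apart.

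The 250 bases before a RefSeq transcription start (build GRCm38.p6) are shown for 6 genes: for Suz12 and Mtf2, whose RNA differed most between the groups, for Ezh2 and Ezh1, which moved in opposite directions among the MLL-AF9 cultures, for Rbbp7, which varied most among those cultures, and for Phf19, the alternative to Mtf2. Capitals mark matches on either strand to CCAAT or to the E2F-type words TTTCCCGC, TTTGGCGC, TTTCGCGC and TTTGCCGC, none of which overlapped another. The windows are chr11:79992856-79993105 (Suz12, plus strand), chr5:108065424-108065673 (Mtf2, plus strand, the first of 2 starts), chr6:47595031-47595280 (Ezh2, minus strand), chr11:101226464-101226713 (Ezh1, minus strand), chrX:162760122-162760371 (Rbbp7, plus strand) and chr2:34913977-34914226 (Phf19, minus strand), each read 5′ to 3′.
Suz12: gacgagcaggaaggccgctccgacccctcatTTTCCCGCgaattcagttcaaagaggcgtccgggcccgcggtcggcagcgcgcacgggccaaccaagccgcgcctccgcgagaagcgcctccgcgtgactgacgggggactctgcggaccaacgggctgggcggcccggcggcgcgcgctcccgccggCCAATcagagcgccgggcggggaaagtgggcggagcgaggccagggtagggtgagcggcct
Mtf2: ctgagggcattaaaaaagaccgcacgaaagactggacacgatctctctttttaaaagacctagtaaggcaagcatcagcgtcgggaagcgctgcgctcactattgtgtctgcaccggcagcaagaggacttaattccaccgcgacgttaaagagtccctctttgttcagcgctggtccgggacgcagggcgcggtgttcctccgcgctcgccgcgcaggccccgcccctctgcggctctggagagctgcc
Ezh2: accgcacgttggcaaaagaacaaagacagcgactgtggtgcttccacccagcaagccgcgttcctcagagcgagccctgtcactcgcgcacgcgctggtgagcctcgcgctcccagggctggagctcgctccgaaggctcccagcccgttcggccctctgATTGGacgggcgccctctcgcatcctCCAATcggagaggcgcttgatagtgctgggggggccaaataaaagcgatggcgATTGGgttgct
Ezh1: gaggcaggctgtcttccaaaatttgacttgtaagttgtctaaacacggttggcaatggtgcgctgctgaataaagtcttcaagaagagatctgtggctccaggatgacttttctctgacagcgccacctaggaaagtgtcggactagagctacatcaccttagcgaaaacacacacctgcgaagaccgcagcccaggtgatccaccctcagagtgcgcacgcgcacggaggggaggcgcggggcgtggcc
Rbbp7: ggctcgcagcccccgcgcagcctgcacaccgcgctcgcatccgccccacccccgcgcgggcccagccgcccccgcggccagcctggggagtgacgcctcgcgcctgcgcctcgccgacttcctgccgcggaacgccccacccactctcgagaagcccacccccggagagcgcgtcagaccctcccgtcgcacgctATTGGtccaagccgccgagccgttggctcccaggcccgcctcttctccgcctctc
Phf19: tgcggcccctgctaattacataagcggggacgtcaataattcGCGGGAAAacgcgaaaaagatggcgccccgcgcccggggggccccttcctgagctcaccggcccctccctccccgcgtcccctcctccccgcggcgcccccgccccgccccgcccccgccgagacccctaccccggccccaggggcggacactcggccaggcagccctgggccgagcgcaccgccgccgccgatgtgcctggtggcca

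An E2F-type word was found before a start of 2 of the 10 genes, Suz12 (219 bases before the start) and Phf19 (208 bases), or in 2 of the 14 windows of these genes, and in 1.86% of the 32851 promoter windows of the same length. CCAAT was found before a start of 7 of the 10 genes, or in 7 of the 14 windows, and in 33.8% of all windows. The Ezh2 window held 3 matches to it, beginning 90, 64 and 11 bases before the start, Suz12 and Rbbp7 held 1 each, and the Ezh1 and Eed windows held none. These matches describe the letters only.

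CPM values below are scaled with TMM factors over the 14 libraries, and 3 counts, the upper limit that a count of 0 allows, corresponded to 0.055 to 0.127 CPM. Every subunit gene was far above that in every sample: the lowest value was 4.52 CPM, for Suz12 in a WT HSPC sample. Per kilobase of exon, Rbbp7 had the highest mean in WT HSPCs, Mir139KO HSPCs and the 6 MLL-AF9 cultures together, but in the puro cultures Jarid2 (47.5 CPM per kb) was above it (29.3). Its mean was 47.8 ± 13.3 CPM per kb (SD, n = 4) for WT HSPCs and 41.9 ± 26.6 (SD, n = 6) for MLL-AF9 cells. In WT HSPCs it was followed by Rbbp4 (27.1 CPM per kb), Jarid2 (15.7), Ezh2 (9.39), Eed (8.02), Phf19 (5.8), Ezh1 (5.29), Suz12 (3.66), Aebp2 (3.5) and Mtf2 (2.69). Only Rbbp7 and Rbbp4 had sample ranges apart from their neighbour there; the other 8 of the 9 neighbouring pairs overlapped. In Mir139KO HSPCs the order was the same but for Aebp2 and Suz12, which changed places, and 6 of 9 neighbouring pairs overlapped.

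In MLL-AF9 cells the order of levels differed. Suz12 came next after Rbbp7 and Jarid2, at 26.3 ± 10.2 CPM per kb, and Mtf2 after it, at 15.4 ± 2.8, while Phf19 was last, at 3.17 ± 1.58, and Ezh1 next to last, at 5.87 ± 2.42 (SD, n = 6). Rbbp4 came below Mtf2, at 12.3 ± 5.04. All 9 neighbouring pairs overlapped in this group. The sums of CPM over the 6 core genes were 447 to 614 in WT HSPCs and 332 to 688 in MLL-AF9 cells, and those over the 4 accessory genes were 133 to 357 and 459 to 678. Jarid2 made up most of the accessory sum, with a mean of 152 of 231 CPM in WT HSPCs and 385 of 577 CPM in MLL-AF9 cells. Phf19 had a lower mean in MLL-AF9 cells (29.2 and 16 CPM), so these sums do not describe each gene.

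**Figure D1:**
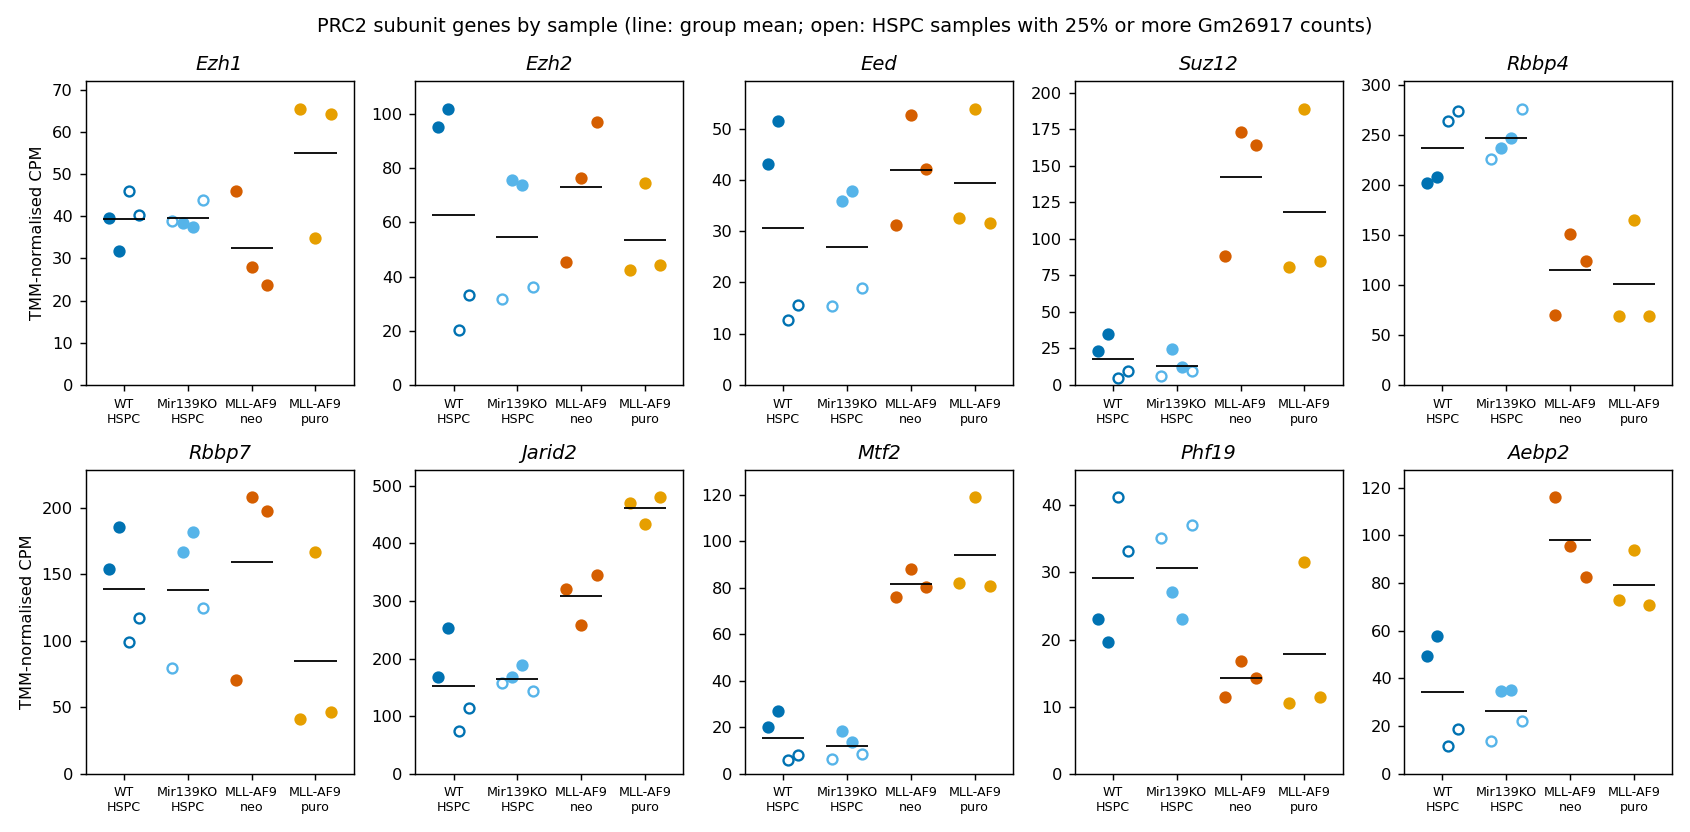
TMM-normalised CPM (vertical axes, linear, from 0) of the 10 PRC2 subunit genes in the 14 samples, by group, with a line at each group mean. Open circles are the high-share HSPC samples, and Suz12 and Mtf2 are the genes whose MLL-AF9 cultures lie farthest above the HSPC samples.

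The first comparison asks how PRC2 subunit RNA differed between MLL-AF9 cells and the normal cells they came from. Of the 10 genes, 4 were called higher in MLL-AF9 cells (Suz12, Mtf2, Aebp2 and Jarid2), 2 lower (Rbbp4 and Phf19), and Ezh1, Ezh2, Eed and Rbbp7 were not called (edgeR quasi-likelihood test, adjusted p under 0.05 over 17077 genes). The 6 calls are to be read against a background of 62.2% of all genes called in this comparison, 32.8% higher and 29.4% lower. The ranges of the 2 groups did not overlap for 5 of the 10 genes, against 50.5% of all genes. The median log2 fold change of the 10 genes was 0.26, that of all genes 0.14.

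Suz12 showed the largest difference. Its level was 23.5, 34.9, 4.52 and 9.5 CPM in WT HSPCs, and its lowest, median and highest values in MLL-AF9 cells were 81, 126 and 189 CPM. Every MLL-AF9 culture was above every WT sample, and the 2 high-share WT samples were the lowest. The log2 fold change was 2.82 ± 0.55 (SE), a 7.08-fold difference, with an edgeR adjusted p of 0.00092. It was called in all 23 alternative settings, from 1.72 with a correction for GC content to 4.07 against the high-share WT samples only.

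Of the other core genes without an alternative form, Eed, whose protein reads the H3K27 mark, was at 43.1, 51.5, 12.6 and 15.6 CPM in WT HSPCs and at 31.3, 37.3 and 53.9 CPM (lowest, median, highest) in MLL-AF9 cells. The low-share WT samples lay within the range of the MLL-AF9 cultures and the high-share samples below it. The difference was 0.38 ± 0.39 on the log2 scale (SE; adjusted p = 0.409, edgeR). A call was made only when the high-share WT samples alone were used (1.39, higher), and it was −0.28 against the low-share samples.

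The 2 catalytic subunits did not differ beyond the spread in this comparison. Ezh2, the more active enzyme, was at 95.4, 102, 20.3 and 33.2 CPM in WT HSPCs, and at 42.3, 60 and 97 CPM (lowest, median, highest) in MLL-AF9 cells. All 6 cultures were above the high-share WT samples, and 5 of them were below the low-share ones. The log2 fold change was −0.0072 ± 0.44 (SE; adjusted p = 0.99, edgeR). With the high-share WT samples alone it was 1.11 and called, and −0.70 and not called against the low-share samples only (edgeR adjusted p = 0.0305 and 0.107), so the value depended on which WT samples entered.

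Ezh1, the alternative enzyme, was at 39.5, 31.8, 45.9 and 40.4 CPM in WT HSPCs and at 23.8, 40.4 and 65.5 CPM (lowest, median, highest) in MLL-AF9 cells. The groups overlapped, and the MLL-AF9 cultures reached both lower and higher than the HSPC samples. The log2 fold change was 0.13 ± 0.33 (SE; adjusted p = 0.738, edgeR), and none of the 23 alternative settings called it.

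Rbbp4 and Rbbp7 encode the near-identical histone-binding subunits, which also serve in chromatin assembly and histone deacetylase complexes. Rbbp4 was at 202, 208, 264 and 274 CPM in WT HSPCs and at 69, 96.8 and 165 CPM (lowest, median, highest) in MLL-AF9 cells. The ranges did not overlap, and the log2 fold change was −1.17 ± 0.31 (SE; adjusted p = 0.00561, edgeR). With library totals in place of TMM factors, which moved the all-gene median on the log2 scale from 0.14 to 0.69, it was −0.56 and not called, and with the GC correction it was −1.99. Rbbp7 was at 154, 186, 99.4 and 117 CPM in WT HSPCs and at 41.5, 119 and 208 CPM in MLL-AF9 cells, which overlapped (log2 fold change −0.22 ± 0.47, SE; adjusted p = 0.695, edgeR).

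All 4 accessory genes were called, 3 of them higher, beside 62.2% of all genes called and 32.8% called higher. Mtf2, a Polycomb-like subunit, was at 20.1, 27, 5.97 and 8.23 CPM in WT HSPCs and at 75.9, 81.4 and 119 CPM (lowest, median, highest) in MLL-AF9 cells. Every MLL-AF9 culture was above every WT sample. The log2 fold change was 2.5 ± 0.42 (SE), a 5.65-fold difference, with an edgeR adjusted p of 0.000358. It was called in all 23 alternative settings, but it was 0.77 with the GC correction and 1.84 against the low-share WT samples, and Mtf2 has the lowest GC content of the 10 genes.

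Phf19, the other Polycomb-like gene of the list, went the opposite way. It was at 23, 19.6, 41.2 and 33.2 CPM in WT HSPCs, and at 10.5, 12.9 and 31.5 CPM (lowest, median, highest) in MLL-AF9 cells. Of the 6 cultures 5 were below every WT sample, and puro replicate 2 lay among them. Phf19 was at −0.91 ± 0.35 on the log2 scale (SE; adjusted p = 0.0382, edgeR), and this call held in 9 of 23 alternative settings, with values from −1.37 to −0.23. It was lost without WT HSPC replicate 3 or 4, neo replicate 1, 2 or 3, or puro replicate 1 or 3 (−0.71 to −0.92 in these fits).

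Jarid2 encodes a DNA-binding subunit that recruits and stimulates the complex. It was at 168, 253, 74.3 and 114 CPM in WT HSPCs and at 259, 390 and 480 CPM (lowest, median, highest) in MLL-AF9 cells. The ranges lay apart by a small gap, from 253 to 259 CPM. The log2 fold change was 1.32 ± 0.35 (SE; adjusted p = 0.00593, edgeR), it was 1.43 with the GC correction, and it was not called against the low-share WT samples only (0.82, adjusted p = 0.0557) or for neo cultures only.

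Aebp2, a zinc-finger subunit found with JARID2, was at 49.4, 58, 11.8 and 18.6 CPM in WT HSPCs and at 70.9, 88.1 and 116 CPM (lowest, median, highest) in MLL-AF9 cells. The groups did not overlap. Aebp2 was higher by 1.35 ± 0.42 on the log2 scale (SE; adjusted p = 0.0134, edgeR). With the GC correction it was 0.091 and not called, and for puro cultures only it was not called.

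**Figure D2:**
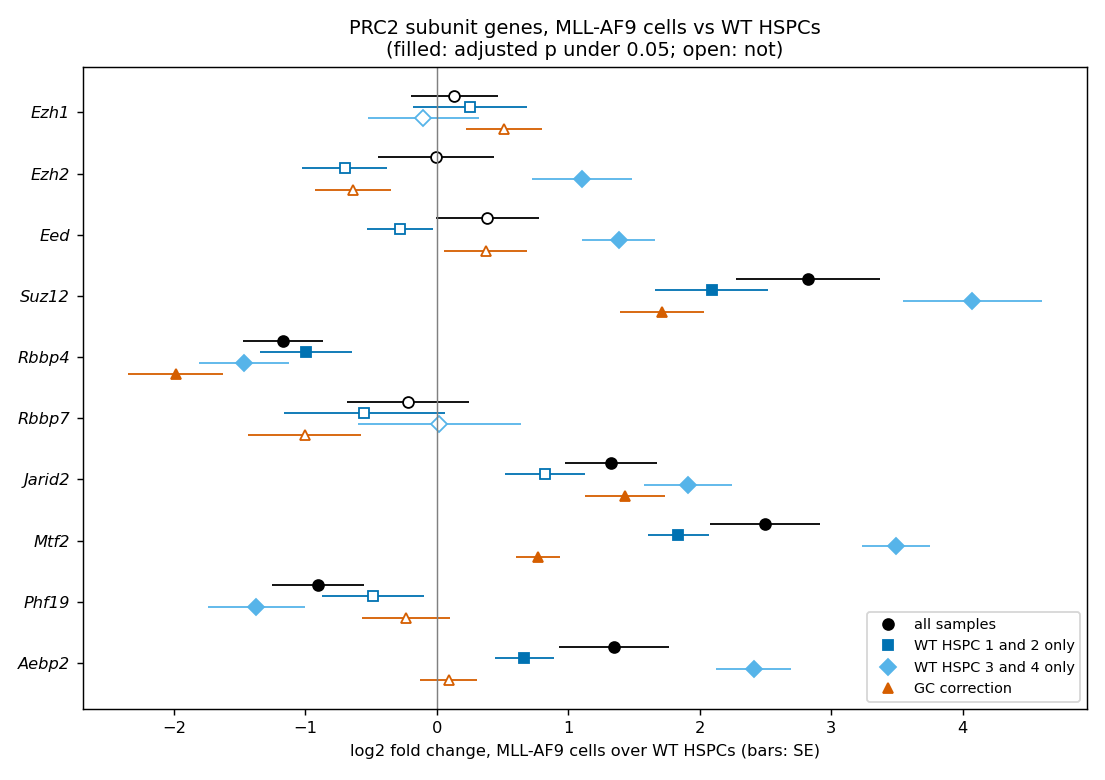
Log2 fold change (horizontal axis, bars are SE) of the 10 PRC2 subunit genes in MLL-AF9 cells over WT HSPCs, for all samples, for MLL-AF9 cells against WT HSPC replicates 1 and 2 or 3 and 4 only, and with the GC correction. Filled symbols were called at an adjusted p under 0.05; Suz12, Rbbp4 and Mtf2 are filled in all 4 settings, while Ezh2 lies on either side of 0.

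The split between high-share and low-share HSPC samples ran through most of these genes. Between the 4 low-share and the 4 high-share HSPC samples, sample ranges did not overlap for 9 of the 10 genes, against 65.2% of all 15056 genes. Of these 9 genes 7 were higher in the low-share samples (Ezh2, Eed, Suz12, Rbbp7, Jarid2, Mtf2 and Aebp2) and 2 were lower (Ezh1 and Phf19), on a scale set by these 8 samples. Ezh2 was at 73.9 to 102 CPM in the low-share and 20.3 to 36.3 CPM in the high-share samples, and Suz12 at 12.4 to 34.9 and 4.52 to 9.5 CPM. Each class held 2 samples of each genotype. The part of GC content, of cell make-up and of RNA quality in this split was not tested.

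The second comparison asks whether loss of Mir139 altered PRC2 subunit RNA in HSPCs. None of the 10 genes was called, and 0% of the 15056 genes tested was called (86 had an unadjusted p under 0.05 with edgeR, while DESeq2 and limma-voom also called 0 genes, with 90 and 81 such genes). Within the low-share samples only, 3279 of 15640 genes had an unadjusted p under 0.05 and 1 was called, and within the high-share samples only 558 and 1, with none of the 10 genes called in either. The sample ranges overlapped for all 10 genes, against 0.458% of all genes without overlap. Log2 fold changes of Mir139KO over WT HSPCs ran from −0.46 ± 0.63 for Suz12 to 0.11 ± 0.35 for Jarid2 (SE). Ezh1 was the most even, at 38.8, 38.3, 37.4 and 43.9 CPM in Mir139KO HSPCs (log2 fold change 0.00013 ± 0.21, SE). Ezh2 was at 31.8, 75.8, 73.9 and 36.3 CPM and Suz12 at 6.51, 24.3, 12.4 and 9.5 CPM, with the high-share samples, replicates 1 and 4, the lower ones for Ezh2. The SE was largest for Suz12, Ezh2, Mtf2, Aebp2 and Eed (0.627, 0.533, 0.523, 0.521 and 0.505 on the log2 scale). With the share class as a covariate, the log2 fold changes of these 5 genes lay between −0.26 and −0.037, and 0 genes were called with edgeR (536 with an unadjusted p under 0.05).

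When the MLL-AF9 cultures were set against Mir139KO HSPCs, the same 6 genes were called in the same directions, against a background of 69.3% of 16953 genes called, 37.3% higher and 31.9% lower. Ranges did not overlap for 5 of the 10 genes, against 58.0% of all genes. The MLL-AF9 samples are those of the first comparison, so its values are not independent of that one. Suz12 was 9.61-fold higher (log2 fold change 3.26 ± 0.43, SE; adjusted p = 4.04e-05, edgeR) and Mtf2 7.27-fold higher (2.86 ± 0.31; adjusted p = 9.99e-06, edgeR). Aebp2 was higher by 1.71 ± 0.29 and Jarid2 by 1.19 ± 0.23, and Rbbp4 fell by 1.23 ± 0.29 and Phf19 by 0.98 ± 0.32 (log2 scale, SE). Suz12, Mtf2 and Jarid2 were called in all 23 alternative settings. Aebp2 was not called with the GC correction (0.18), Rbbp4 with library totals (−0.55), nor Phf19 in 4 settings. Ezh2 was not called (0.18 ± 0.33, SE), except with the GC correction, where it was called lower (−0.66, adjusted p = 0.0339).

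Ratios of counts within a library need no scaling between libraries, and they are given on the log2 scale without regard to gene length, so they compare samples and do not say which of 2 subunits was the more abundant. For the Polycomb-like pair, the log2 ratio of Mtf2 to Phf19 was −0.19, 0.46, −2.78 and −2.01 in WT HSPCs and −2.43, −0.56, −0.75 and −2.13 in Mir139KO HSPCs. It was 2.73, 2.39 and 2.49 in the neo cultures and 2.97, 1.92 and 2.81 in the puro cultures. All 6 MLL-AF9 cultures were above all 8 HSPC samples. The mean ratio rose 12.8-fold from WT HSPCs (difference 3.68 on the log2 scale) and 16.2-fold from Mir139KO HSPCs (4.02), each with an exact two-sided permutation p of 0.00476, the smallest that 6 samples against 4 allow, and 0.0286 after adjustment over the 12 tests of ratios. With the GC correction the differences were 1.24 and 1.44 (exact permutation p = 0.019 and 0.00952, both 0.114 after adjustment), so this call did not hold there. Nor did it hold after adjustment when any 1 of the 4 HSPC samples compared was left out (exact permutation p = 0.0119, adjusted 0.0714, with 3.13 as the smallest difference), where 0.0119 is the smallest p that 6 samples against 3 allow.

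The catalytic pair did not show such a difference. The log2 ratio of Ezh2 to Ezh1 was 1.27, 1.68, −1.18 and −0.29 in WT HSPCs, and −0.29, 0.99, 0.98 and −0.28 in Mir139KO HSPCs. It was positive in the 4 low-share HSPC samples and negative in the 4 high-share ones. In MLL-AF9 cells it was −0.017, 1.46 and 2.02 in the neo cultures and −0.63, 1.09 and −0.54 in the puro cultures, so Ezh2 counts were 4.07 times those of Ezh1 in neo replicate 3 and 0.645 times in puro replicate 1. The difference from WT HSPCs was 0.19 (exact permutation p = 0.762) and that from Mir139KO HSPCs 0.21 (p = 0.719, exact permutation test, two-sided).

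For the histone-binding pair, the log2 ratio of Rbbp7 to Rbbp4 was below 0 in all 8 HSPC samples, from −1.51 to −0.16. It was −0.74 to 0.68 in MLL-AF9 cells, above 0 in the 3 neo cultures and in puro replicate 2. The difference was 0.78 from WT HSPCs and 0.88 from Mir139KO HSPCs, and neither passed the exact permutation test (two-sided p = 0.0857 and 0.0524, 0.257 and 0.21 after adjustment). Between Mir139KO and WT HSPCs the 3 ratios differed by −0.34 to −0.021 (exact permutation p = 0.657 to 0.971).

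**Figure D3:**
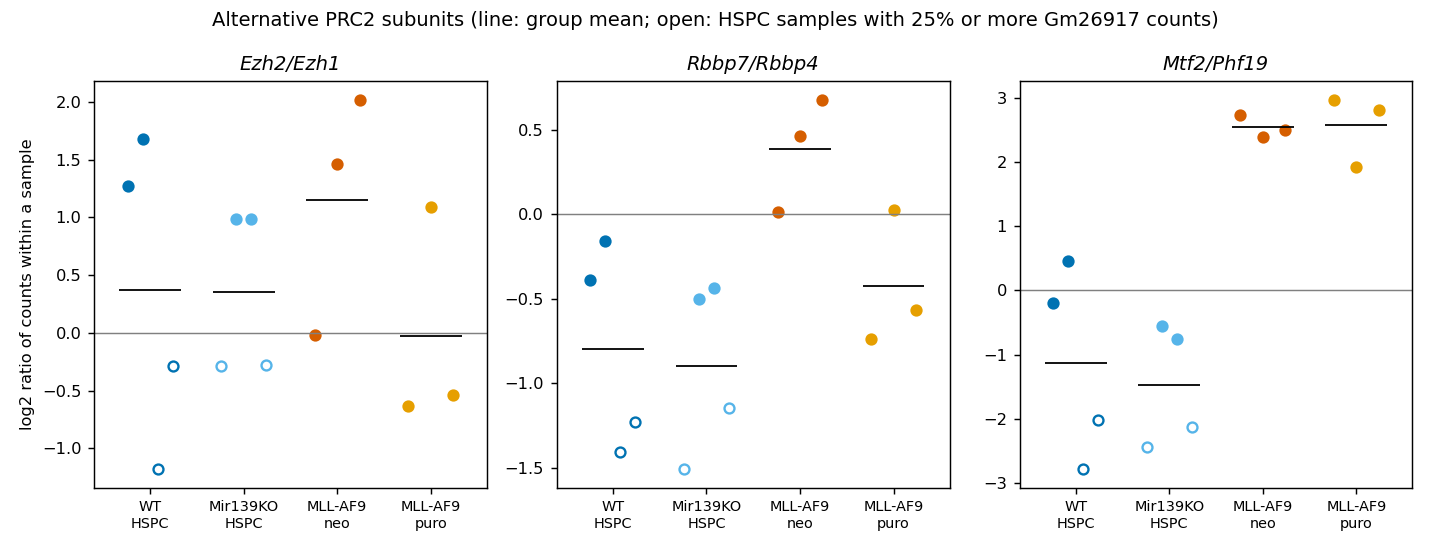
Log2 ratio of counts within each sample (vertical axes) for 3 pairs of alternative PRC2 subunits, by group, with lines at the group means and open circles for high-share HSPC samples. The MLL-AF9 cultures lie at 1.92 to 2.97 for Mtf2/Phf19, above all HSPC samples, and overlap with them in the other 2 panels.

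The 6 MLL-AF9 cultures differed among themselves, and the subunits did not move alike. Ezh2 was at 45.3, 76.5 and 97 CPM in neo replicates 1 to 3 and at 42.3, 74.6 and 44.2 CPM in puro replicates 1 to 3. Ezh1 was at 45.9, 27.9 and 23.8 CPM in the neo and at 65.5, 34.9 and 64.2 CPM in the puro cultures. The cultures with the 3 highest Ezh2 values, neo replicates 2 and 3 and puro replicate 2, were those with the 3 lowest Ezh1 values.

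The same 3 cultures were the highest for 6 of the 10 genes: Ezh2, Eed, Suz12, Rbbp4, Rbbp7 and Phf19. How many of all genes share this order was not counted, so it cannot be called particular to these genes. Rbbp7 spread most, at 70.7, 208 and 198 CPM in the neo cultures and 41.5, 167 and 46.5 CPM in the puro cultures, a range of 2.32 on the log2 scale. Suz12 was at 88, 173 and 164 CPM in the neo and 81, 189 and 84.7 CPM in the puro cultures. Mtf2 had the smallest log2 range of the 10 genes, 0.65, and in Jarid2 the 3 puro cultures (471, 433 and 480 CPM) were above the 3 neo cultures (320, 259 and 346 CPM). All 13 proliferation genes were also highest in these 3 cultures. The cyclin gene Ccna2 ranged over 3.39 and the replication helicase gene Mcm5 over 2.97 on the log2 scale among the cultures. The 13 genes summed to 3400 to 3990 CPM in WT HSPCs and 561 to 3000 CPM in MLL-AF9 cells. Against WT HSPCs 1 of them was called higher and 5 lower, beside 32.8% of all genes called higher and 29.4% lower. With 6 cultures, 2 of them close to each other, no test was made of this order, and the part of cell division in it was not tested.

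**Figure D4:**
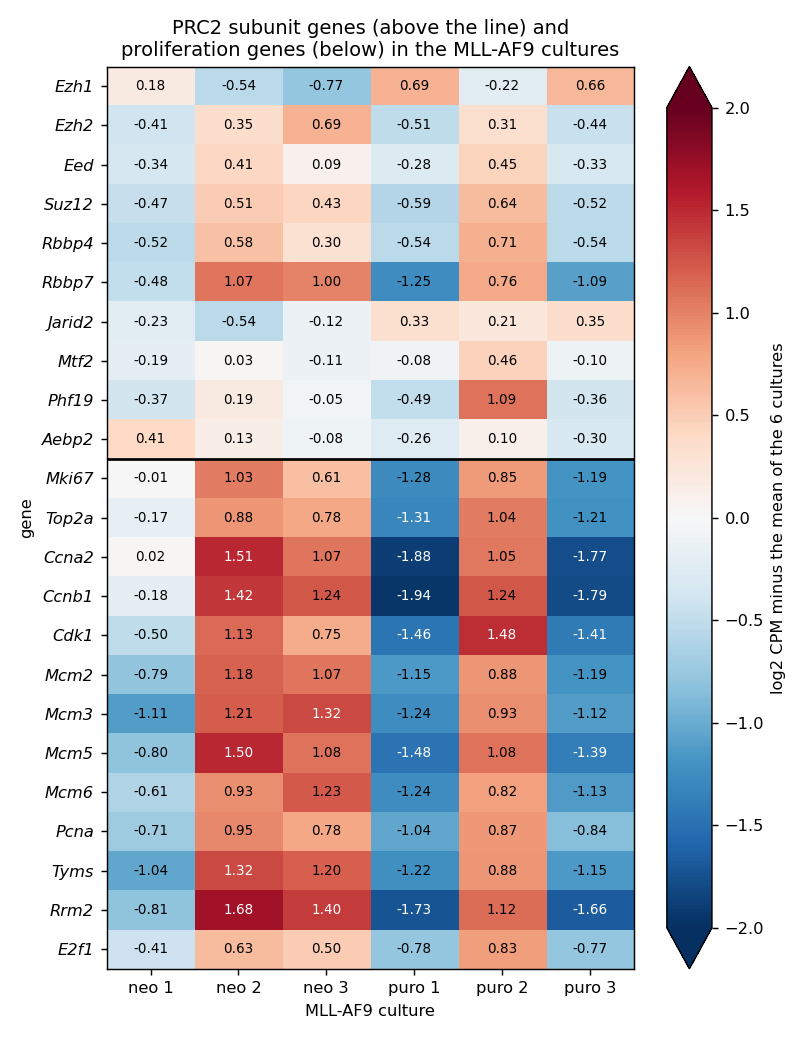
Log2 CPM minus the mean of the 6 MLL-AF9 cultures (colour and printed values) for the 10 PRC2 subunit genes, above the line, and 13 proliferation genes, below it. Neo replicates 2 and 3 and puro replicate 2 are highest for all 13 proliferation genes and for 6 subunit genes, and lowest for Ezh1.

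Compared by vector, none of the 10 genes was called between puro and neo cultures, against 0.873% of 16503 genes called (144 genes with edgeR, 1326 with DESeq2 and 199 with limma-voom). That background rested on single cultures: edgeR called 0 genes without neo replicate 2 or without neo replicate 3 (1900 and 1582 with an unadjusted p under 0.05), 3 without puro replicate 3, 5 without puro replicate 1, 41 without neo replicate 1 and 990 without puro replicate 2. Of the 10 genes none had an adjusted p under 0.05 by any of these 3 tools, and only Jarid2 had an unadjusted p under 0.05 with edgeR. Jarid2 was the only gene without overlap, against 19.9% of all genes, and its puro cultures were higher by 0.58 ± 0.19 on the log2 scale (SE; adjusted p = 0.238, edgeR). The others ran from −0.94 ± 0.63 for Rbbp7 to 0.77 ± 0.39 for Ezh1 (log2 fold change, SE). The Ezh2 to Ezh1 ratio differed by −1.18 on the log2 scale between the vectors (exact permutation p = 0.2, where 3 against 3 cannot go below 0.1). By the methods neomycin or puromycin served for selection, so vector and drug cannot be told apart.

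Other genes of the pathway were taken from lists of related factors. Of 5 further PRC2 accessory or inhibitor genes, 4 passed the filter on low counts, and in MLL-AF9 cells against WT HSPCs 2 were called higher and 1 lower, beside 62.2% of all genes called. Lcorl and Lcor each encode, as 1 of their isoforms, an accessory protein of the Polycomb-like form, which counts per gene do not separate from the other isoforms. Their levels rose from 4.03 to 8.75 and 5.91 to 20.9 CPM in WT HSPCs to 121 to 240 and 124 to 193 CPM in MLL-AF9 cells. The log2 fold changes were 4.51 ± 0.35 and 3.51 ± 0.40 (SE), and with the GC correction they were 2.36 and 2.37 and still called. Epop fell by 1.84 ± 0.69 (SE; adjusted p = 0.0334, edgeR) but was not called with the GC correction, with library totals, against the low-share WT samples only, for puro cultures only or with puro replicates 1 and 3 summed (−0.84, −1.15, −1.07, −1.81 and −1.64). Phf1, the remaining Polycomb-like gene, was not called (−0.34 ± 0.38, SE). The EZHIP gene, under its older symbol AU022751, had 0 counts in all 14 libraries. The median log2 fold change was 1.59 over the 4 genes tested, and 0.14 over all genes.

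Enzymes that act on or against the mark showed both calls and none. Of the 2 H3K27 demethylase genes, Kdm6a rose, from 11.2 to 34.5 CPM in WT HSPCs to 93.6 to 300 CPM (log2 fold change 2.62 ± 0.45, SE, and 1.52 with the GC correction). Kdm6b was not called in the main fit (0.28 ± 0.33, SE). It was called higher with the GC correction (1.03) and with library totals in place of TMM factors (0.96). Of 5 genes for methyltransferases of H3 lysine 36, a mark that hinders PRC2, Setd2 (2.23 ± 0.40) and Ash1l (2.01 ± 0.41) rose and Nsd1, Nsd2 and Nsd3 were not called. The calls of both lists stand beside 62.2% of all genes called and 32.8% called higher against WT HSPCs. The medians of these lists were 1.45 and 0.71 on the log2 scale. Against Mir139KO HSPCs 3 of the 5 were called higher, beside 69.3% of all genes called and 37.3% called higher. With the GC correction Setd2 and Ash1l were at 1.55 and 1.58 and still called, and Nsd2 was called lower (−1.42).

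Of 14 genes of other complexes that use RBBP4 or RBBP7, 8 fell in MLL-AF9 cells against WT HSPCs and none rose, where 62.2% of all genes were called, with a median log2 fold change of −0.92 over the list and 0.14 over all genes. The chromatin assembly genes Chaf1a and Chaf1b fell by 2.01 and 1.36, the deacetylase-complex genes Mbd3, Mta2, Mta1, Sin3b, Chd4 and Gatad2a by 2.32, 1.72, 1.64, 1.08, 0.96 and 0.88 on the log2 scale. Hdac1, Hdac2, Sin3a, Mta3, Mbd2 and Gatad2b were not called (−0.26 to 0.31). With library totals in place of TMM factors 4 fell and 1 rose, with the GC correction 6 fell and 1 rose, and against the high-share WT samples only 8 fell and 4 rose.

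Citing earlier work, the study names Cdkn2a, Cdkn2b, Gata2 and Egr1 as tumour suppressor genes that PRC2 represses in MLL-AF9 leukaemia. For Cdkn2a it also reports a rise in MLL-AF9 cells treated with a PRC2 inhibitor, a contrast unlike the comparison with HSPCs made here. For MLL-AF9 cells against WT HSPCs the study reports, by gene set enrichment, that sets of Polycomb targets, those of PRC2 among them, were enriched among the lower genes. The 4 genes named here do not test those sets. In MLL-AF9 cells against WT HSPCs all 4 were called, 3 higher and 1 lower (median log2 fold change 3.24). These counts stand beside the 62.2% of all genes called, 32.8% higher and 29.4% lower. Gata2, a stem-cell transcription factor, was at 85.1, 158, 216 and 194 CPM in WT HSPCs and 0.495 to 9.8 CPM in MLL-AF9 cells (log2 fold change −5.0 ± 0.80, SE). The immediate-early gene Egr1 rose from 3.52 to 8.51 CPM to 12.4 to 131 CPM (2.93 ± 0.67). The cell-cycle inhibitor genes Cdkn2a and Cdkn2b stayed low in MLL-AF9 cells, at 0.6 to 4.62 and 0.659 to 1.9 CPM, from at most 0.404 and 0.0839 CPM in WT HSPCs (3.55 ± 0.84 and 4.87 ± 0.62, SE). Both are a few counts per library in HSPCs, and Cdkn2a was not called against the high-share WT samples only.

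As a description of shared patterns over the 14 samples, Pearson's r of log2 CPM was computed against 8394 other protein-coding genes. Closest to Ezh2 were Tfam (r = 0.994), Cbx5 (0.987) and Mrps31 (0.979). Closest to Ezh1 were Acox3 (0.983), Khnyn (0.956) and Csf2ra (0.937), and closest to Suz12 were Stag1 (0.998), Rlim (0.997) and Ddx10 (0.997). The samples fall into groups that differ in cell type, culture and Gm26917 share, which all genes have in common, so these values carry no test.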

How the data were processed

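Total RNA was sequenced from 14 samples after ribosomal RNA removal. Read counts per gene were deposited by the authors as whole numbers without normalization; per the methods, reads were checked with FastQC 0.11.8, aligned to GRCm38 with STAR 2.5.3e and counted with featureCounts 1.6.0 on GENCODE M15. The handling of strand and of multi-mapping reads is not given in the sources used here. A second deposited table was not used.

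Counts were tested with edgeR 4.0.16 (R 4.3.3; quasi-likelihood test, TMM factors, robust) between the 2 groups compared, on genes with at least 10 counts in as many samples as the smaller group, with Benjamini-Hochberg adjustment over all genes tested and calls at an adjusted p under 0.05. DESeq2 1.42.0, limma 3.58.1 (voom), other scalings and filters, a GC correction and left-out samples were alternatives. Ratios of 2 genes used counts plus 0.5 and exact two-sided permutation tests (SciPy 1.17.1). Gene positions, exonic length and GC content came from GENCODE M21 on GRCm38. The edgeR script was tested on simulated data, where 200 of 200 changed genes were recovered in each comparison, with 7 to 10 false calls. The simulation gave every gene the same spread, changed only well-counted genes by a fixed amount and left out the split by Gm26917 share. It checks the script and does not measure the power in these data.

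All 10 subunit genes were named whatever their values, as were called genes of the pathway lists and the 3 genes closest in pattern to Ezh1, Ezh2 and Suz12. The members and lists were chosen with earlier results of these data known. Hdac, Sin3, Mta, Mbd, Gatad2 and Nsd genes that were not called were named after their values were seen. Depth was 35016668 to 45877994 counts per sample, and floors of 3 counts cover counting error only. The replicate numbers were not taken as pairs.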

Additional observations from a re-analysis of the deposited data

Results flagged for a closer look

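Among the 6 MLL-AF9 cultures, Mtf2 in puro replicate 2 (119 CPM) stood apart from the other 5, which lay between 75.9 and 88.3 CPM. The gap to the next culture was 0.665 of the whole range, above Dixon's critical value of 0.625 for 6 samples. In all, 39 groups of values were tested in this way, and chance alone marks about 1 in 20. Without this culture Mtf2 was still called higher than in WT HSPCs.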

How the results depend on the processing

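The number of subunit genes called stayed within 1.5 times in all 80 alternative fits. Of 800 alternative fold changes of single genes, 695 kept direction and call, 25 lost the call, 3 gained it and 77 changed sign; the cause was not tested. In MLL-AF9 cells against WT HSPCs the sign changed for Ezh1, Ezh2 and Rbbp7 with neo cultures only (−0.26, 0.23 and 0.19) and with high-share HSPC samples only (−0.10, 1.11 and 0.020), for Ezh2 and Rbbp7 with library totals (0.37 and 0.25), for Ezh2 with limma-voom (0.21) or puro replicates 1 and 3 summed (0.092), and for Eed with low-share samples only (−0.28). In Mir139KO against WT HSPCs it changed for Ezh1, Rbbp4 and Jarid2 with library totals (−0.077, −0.0056 and −0.096), for Ezh1, Ezh2, Rbbp4 and Rbbp7 with the GC correction (−0.019, 0.0055, −0.0084 and 0.017), and for Rbbp7 with RLE factors (0.00098) and DESeq2 (0.0010). With high-share samples only, Ezh1, Ezh2, Eed, Suz12, Rbbp4, Mtf2, Phf19 and Aebp2 were at −0.097, 0.32, 0.26, 0.17, −0.14, 0.046, −0.077 and 0.21, and with low-share samples only, Rbbp7 and Jarid2 were at 0.053 and −0.22. In MLL-AF9 cells against Mir139KO HSPCs it changed for Ezh1 and Rbbp7 with neo cultures only (−0.29 and 0.19), for Ezh1 with the summed replicates (−0.0084), for Ezh2 with the GC correction, puro cultures only and low-share samples only (−0.66, −0.024 and −0.32), and for Rbbp7 with library totals and high-share samples only (0.37 and 0.15). Between puro and neo, Eed was at 0.015 with the summed replicates. Library totals moved the median of all genes from 0.14 to 0.69 against WT HSPCs (68.3% of called genes higher, in place of 52.7%) and from 0.16 to 0.84 against Mir139KO HSPCs (71.4% in place of 53.9%).

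Of 165 alternative ratios, 122 kept direction and call. The Ezh2 to Ezh1 difference was −0.99, −0.40 and −0.91 against WT HSPCs and −1.05, −0.38 and −0.42 against Mir139KO HSPCs with the GC correction, puro cultures only and low-share samples only, and 0.063 and 0.45 between the HSPC groups with the GC correction and high-share samples only. The Mtf2 to Phf19 difference lost its call with the GC correction, neo only, puro only, low-share only and high-share only (1.24, 3.67, 3.70, 2.42 and 4.95 against WT HSPCs, 1.44, 4.00, 4.03, 3.21 and 4.83 against Mir139KO HSPCs), where all but the first leave fewer samples. It was also lost after adjustment without any 1 of the HSPC samples. It was 0.12 between the HSPC groups in high-share samples and −0.13 between puro and neo with the summed replicates.

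Leaving out 1 sample at a time gave, against WT HSPCs, Ezh1 −0.0094 to 0.27 and Ezh2 −0.31 to 0.30, and against Mir139KO HSPCs, Ezh1 −0.032 to 0.25 and Ezh2 −0.051 to 0.39. In Mir139KO against WT HSPCs the ranges were −0.11 to 0.094 for Ezh1, −0.49 to 0.13 for Ezh2, −0.44 to 0.17 for Eed, −0.93 to 0.067 for Suz12, −0.045 to 0.13 for Rbbp4, −0.18 to 0.18 for Rbbp7, −0.11 to 0.46 for Jarid2, −0.68 to 0.028 for Mtf2 and −0.11 to 0.28 for Phf19. Between puro and neo they were −0.35 to 0.081 for Eed, −0.69 to 0.030 for Rbbp4 and −0.33 to 0.56 for Phf19. For the ratios, Ezh2 to Ezh1 ran from −0.33 to 0.63 (WT), −0.54 to 0.42 (between HSPC groups) and −0.078 to 0.45 (Mir139KO), Mtf2 to Phf19 from 3.13 to 4.21, −0.89 to 0.19 and 3.70 to 4.32, and −0.17 to 0.35 between puro and neo, and Rbbp7 to Rbbp4 from −0.31 to 0.11 between HSPC groups.

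Deviations of same-numbered samples correlated with mixed signs (r of −0.55, 0.63, −0.57 and 0.42 between the HSPC groups, 0.44, 0.39 and −0.31 between puro and neo, over 17994 genes). Between the HSPC groups r was positive where both samples had the same share class and negative where they did not. The check therefore cannot say whether the numbers pair the samples, and they were not taken as pairs. With a replicate block, 5, 0, 6 and 0 subunit genes were called in the 4 comparisons. Between puro and neo the count of all genes called was 144 with edgeR, 1326 with DESeq2, 761 in a fit of all 14 samples, 221 without the filter, 214 with the replicate block and 5 with puro replicates 1 and 3 summed.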
